A study of Mus musculus with 18 samples.

Results

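Day 14 after wire injury of the mouse carotid artery was compared with day 7, gene by gene, over 3 libraries labelled day 14 and 4 labelled day 7, which make up 7 of the 18 libraries of the series. The members were taken by the day in their labels, and all 10312 genes that passed a filter on low counts, of 35655 listed, were compared. All 7 libraries came from injured carotid arteries of wild-type (WT) C57/BL6 mice, which the study describes as males of 11 weeks at injury. Neither group carried a transgene or received a drug, so the labelled condition of the groups differed only in the time since injury. The wire strips the endothelium from the inside of the artery, and uninjured arteries (day 0, 4 libraries) and injured arteries of day 21 (4 libraries) and day 28 (3 libraries) served as reference levels and shared the estimate of spread. By their labels, 3 of the 4 day 0 libraries carry the same number as a day 21 library, and the study took the uninjured right carotid as control, so these may come from the same animals, which the fit did not model. No number is shared between day 7 and day 14 or between either of them and another day, and without the day 0 libraries 127 genes were called (97 higher, 30 lower), 118 of them among the 171 described below. Day 7 replicates 2, 3 and 4 carry numbers above those of every other library, and day 7 replicate 1 lies within the day 14 range. The labels do not say what these numbers stand for. A difference tied to them cannot be fully told apart from the time since injury, and was not tested. Each library was made from up to 70 frozen sections cut by laser capture microdissection and holding the outer elastic lamina and the neointima, so that RNA of several cell types was mixed. The study also speaks of pooled neointima samples, and the number of animals behind a library was not given in the sources used here, so p-values measure only the spread between these samples, which may be partly technical.

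In an artery that has lost its endothelium, platelets and leukocytes settle on the bare wall, and macrophages clear dead cells and trapped blood. Smooth muscle cells give up much of their contractile protein, divide, move inwards and lay down collagen, elastic fibres and proteoglycans, which together form the neointima. The contractile state is known from actin, smooth muscle myosin and their regulators, and its genes are largely driven by serum response factor (SRF), which binds a short A- and T-rich element called the CArG box.

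The libraries held between 484259 and 676624 estimated counts on day 7 and between 555284 and 789510 on day 14. The smooth muscle markers Acta2, Myh11, Tagln and Cnn1, which define the labelled tissue, had counts in all 7 libraries. Ribosomal protein genes took 12.6 to 13.1% of counts on day 7 and 8.49 to 11.8% on day 14, a difference whose part in the results below was not tested. Counts of the named cell types below came from whole tissue, in which fewer cells of a type and less RNA per cell cannot be told apart. Values are given as CPM, the counts of a gene scaled to the same effective (TMM-normalised) total in each library, in the order of the replicate numbers in the labels, 4 values for day 7 and 3 for day 14. Log2 fold changes are day 14 over day 7 with their standard errors (SE), and the adjusted p is that of edgeR's quasi-likelihood test, Benjamini-Hochberg adjusted over the 10312 genes, with 0.05 as the limit for a call.

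Of the 10312 genes, 171 were called (1.66% of those tested), 137 higher on day 14 (1.33%) and 34 lower (0.33%). The median log2 fold change of all genes was -0.0075, that of the genes called higher was 1.69, and that of the genes called lower was -1.90. The smallest change called was 0.753 on the log2 scale, so the design called large changes. In 121 of the 137 higher and 33 of the 34 lower genes, the 3 day 14 libraries all lay beyond the 4 day 7 libraries. Over all genes tested, 6.34% lay apart in this way in the higher direction and 7.59% in the lower direction.

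**Figure D1:**
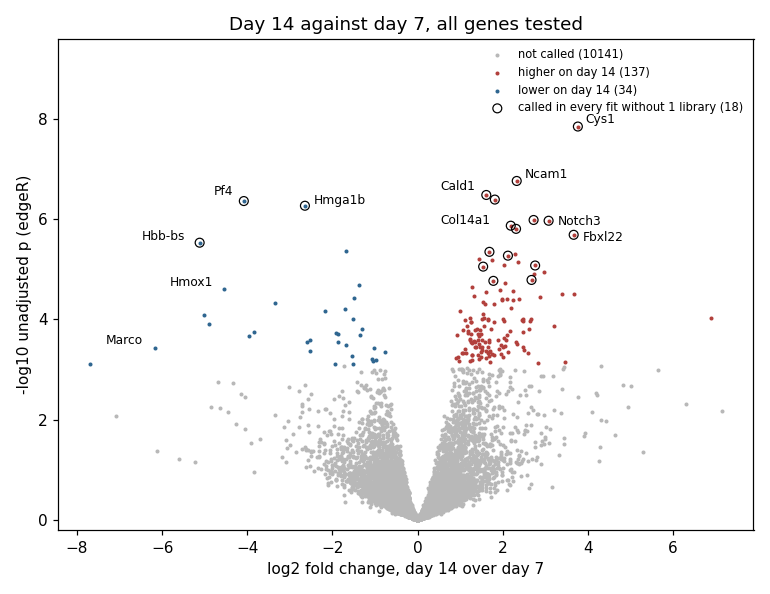
Each point is 1 of the 10312 genes tested, with the log2 fold change of day 14 over day 7 on the x axis and -log10 of the unadjusted edgeR p on the y axis. The 137 genes called higher are red, the 34 called lower are blue, and black circles mark the 18 genes called in every fit without 1 library, with Cys1 highest on the y axis.

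The number of calls depended on single libraries. Without day 14 replicate 1 the count fell to 26 (23 higher, 3 lower), or with DESeq2 to 110, of which 96 were among the 171, without day 7 replicate 2 to 66 and without day 14 replicate 3 to 81, whereas without day 7 replicate 4 it was 318. Day 14 replicate 1 was the highest of the 3 day 14 libraries in 92 of the 137 higher genes and the lowest in 20 of the 34 lower genes, and day 7 replicate 4 was the highest of the 4 day 7 libraries in 86 of the 137. Of 83 called genes whose values were examined singly, 61, 47, 62 and 76 were still called without day 7 replicates 1, 2, 3 and 4, and 23, 65 and 51 without day 14 replicates 1, 2 and 3. Fitted on the day 7 and day 14 libraries alone, the count was 83, with 40 higher and 43 lower. A set of 18 genes, 15 higher and 3 lower, was called with each of the 7 libraries left out in turn, and these are described next. Genes were named by a rule on p and list membership, and Gdf10, Cpxm2, Myh11, Smtn, Tagln, Col1a1, Eln, Cd68, Csf1r, Mki67 and the genes of the lists written after the calls (Slc40a1, Marco, Fth1, Gclm and Txnrd1 below) were chosen after their values had been seen.

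**Figure D2:**
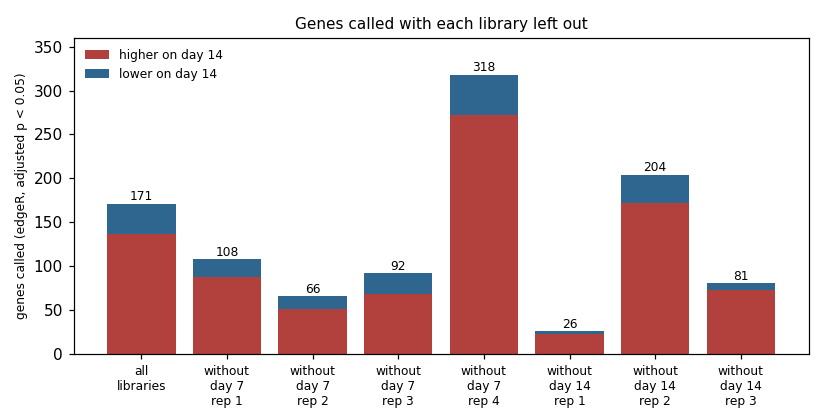
Bars give the number of genes called (edgeR adjusted p under 0.05) with all libraries and with each day 7 or day 14 library left out, split into higher (red) and lower (blue) on day 14. The number above a bar is the total, 171 with all libraries, 26 without day 14 replicate 1 and 318 without day 7 replicate 4.

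Cys1 had the smallest p of all genes. It encodes cystin 1, a protein of the primary cilium, and lies at chr12:24715832-24731812 (GRCm39, minus strand). Its levels were 7.12, 1.80, 3.99 and 6.46 CPM on day 7 and 84.8, 47.6 and 74.4 CPM on day 14. All 3 day 14 libraries lay far above all 4 day 7 libraries, the log2 fold change was 3.77 ± 0.46 and the adjusted p was 0.000146. The uninjured level of 69.3 ± 20.7 (SD, n = 4) CPM was close to the day 14 mean of 68.9 ± 19.2 (SD, n = 3) CPM, and day 28 was at 142 ± 49.6 (SD, n = 3) CPM.

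Notch3, the Notch receptor of arterial smooth muscle and pericytes, lies at chr17:32339794-32385893 (GRCm39, minus strand). It read 5.34, 5.39, 5.98 and 8.07 CPM on day 7 and 57.6, 75.9 and 30.0 CPM on day 14. The groups lay apart, with a log2 fold change of 3.08 ± 0.48 and an adjusted p of 0.00138. In contrast to Cys1, its day 14 libraries all lay above the uninjured mean, which was 22.7 ± 2.82 (SD, n = 4) CPM, and day 21 was at 110.4 ± 44.2 (SD, n = 4) CPM. Ncam1, a neural cell adhesion molecule also carried by smooth muscle, was at 83.7, 43.1, 59.8 and 74.3 CPM on day 7 and 550.3, 245 and 193 CPM on day 14. Replicate 1 was the highest day 14 library, all 3 exceeded day 7, and the gene rose by 2.33 ± 0.33 with an adjusted p of 0.000887, with 432 ± 85.4 (SD, n = 4) CPM on day 0.

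Cald1 encodes caldesmon, which binds actin and holds back myosin. Its day 7 libraries were closely spaced, at 185, 183, 163 and 158 CPM, and its day 14 libraries were at 725, 431 and 432 CPM. The rise was 1.62 ± 0.23 with an adjusted p of 0.000894, and the 882 ± 193 (SD, n = 4) CPM of the uninjured artery was still above every day 14 library. Fbxl22, an F-box protein of the sarcomeric Z-disc in heart muscle, went from 7.12, 1.80, 3.99 and 9.69 CPM to 147, 30.0 and 49.6 CPM (log2 3.67 ± 0.60, adjusted p 0.00192), against 207 ± 48.6 (SD, n = 4) CPM on day 0. Its day 14 libraries lay above all of day 7, and replicate 1 was much the highest of them. Smarcd3, a subunit of the SWI/SNF chromatin remodeller found in muscle, was at 44.5, 30.5, 25.9 and 40.4 CPM on day 7 and 150.4, 93.5 and 132 CPM on day 14, with no overlap (log2 1.82 ± 0.27, adjusted p 0.000894).

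Of the other genes in this set, several encode secreted or surface proteins. Col14a1, the chain of the fibril-associated collagen XIV, lies at chr15:55171140-55384199 (GRCm39, plus strand) and was at 28.5, 79.1, 29.9 and 77.5 CPM on day 7 and 248, 191 and 303 CPM on day 14 (log2 2.19 ± 0.35, adjusted p 0.00154). Ltbp4, a latent TGF-beta binding protein needed for elastic fibre assembly, was at 89.0, 95.2, 81.7 and 345 CPM and then 968, 515 and 812 CPM (log2 2.31 ± 0.37, adjusted p 0.0016). For both genes the groups did not overlap, although day 7 replicate 4 stood well above the other day 7 libraries for Ltbp4. Gdf10, a TGF-beta family ligand, was at 49.9, 53.9, 5.98 and 85.6 CPM and then 319.9, 222 and 466 CPM (log2 2.76 ± 0.49, adjusted p 0.00411), whereas the uninjured artery held 75.7 ± 41.5 (SD, n = 4) CPM. Day 14 of Gdf10 thus lay above day 0 as well as above day 7. Serpine2, the protease inhibitor nexin-1, went from 465, 341, 165 and 956 CPM to 1808, 1406 and 1765 CPM (log2 1.78 ± 0.34, adjusted p 0.00673). Cst3, cystatin C, a secreted inhibitor of cysteine cathepsins, went from 1667, 1619, 1128 and 3305 CPM to 4852, 3969 and 8039 CPM (log2 1.54 ± 0.28, adjusted p 0.00414). Neither Serpine2 nor Cst3 overlapped between the days. The other higher genes of the set were Vasn, a surface protein that binds TGF-beta (1.69 ± 0.29), C1qtnf2, a secreted C1q-related protein (2.73 ± 0.42), Plekhg3 (2.12 ± 0.37) and the carboxypeptidase-like Cpxm2 (2.68 ± 0.50), given here as log2 fold changes with their SE. Their adjusted p values were 0.00329, 0.00138, 0.00344 and 0.00671, and for each of them the days did not overlap.

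The 3 lower genes of the set were Pf4, Hmga1b and Hbb-bs. Pf4, platelet factor 4, a chemokine of platelets and some macrophages at chr5:90918479-90922110 (GRCm39, plus strand), fell from 265, 339.6, 134 and 149 CPM to 12.8, 15.9 and 10.4 CPM (log2 -4.08 ± 0.60, adjusted p 0.000894). Even the lowest day 7 library was far above the highest day 14 library, and the uninjured artery was at 9.97 ± 5.42 (SD, n = 4) CPM. The other platelet genes listed, Ppbp, Itga2b and Gp9, did not pass the filter on low counts, so Pf4 was the only platelet gene tested. Hmga1b is a near-identical copy of Hmga1, a high mobility group protein of dividing cells, so its counts are uncertain. It was at 623, 828, 724 and 457 CPM on day 7 and 41.6, 124 and 149 CPM on day 14 (log2 -2.65 ± 0.40, adjusted p 0.000924). Its groups did not overlap, and day 0 held 62.8 ± 34.7 (SD, n = 4) CPM. Hbb-bs, an adult beta globin, is described with the other globins below.

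**Figure D3:**
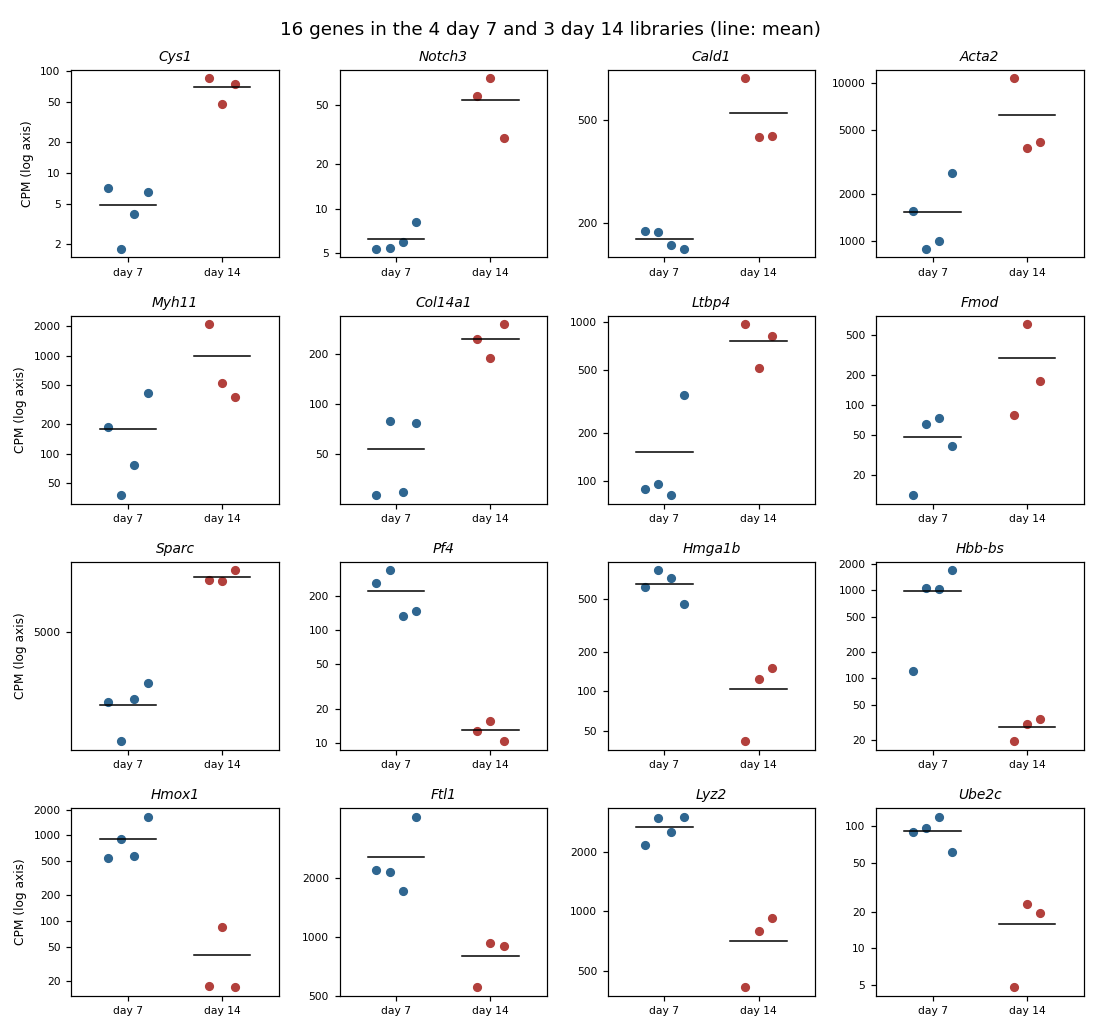
Each point is the level of 1 gene in 1 library in CPM (log axis), blue for the 4 day 7 libraries and red for the 3 day 14 libraries, and the line is the mean. Among the 16 genes shown, those of the upper rows lie higher on day 14, with overlap of the groups for Myh11, and those from Pf4 on lie lower on day 14 with no overlap.

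Among the gene lists, the contractile smooth muscle genes held the largest share of calls in the higher direction. Of 25 tested, 13 rose and none fell, against 1.33% of all genes, and the median log2 fold change was 1.62. All 25 estimates were above 0, and the days did not overlap in 11, against 6.34% of all genes in the higher direction. Their summed level was 10066, 6579, 7778 and 18667 CPM in the 4 day 7 libraries and 49941, 18075 and 21132 CPM in the 3 day 14 libraries. Day 14 replicate 1 was far above the other day 14 libraries, and day 7 replicate 4 was slightly above day 14 replicate 2, so the sums overlapped. The uninjured artery held 72936 to 80859 CPM, above every day 14 library.

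Acta2, smooth muscle alpha-actin, at chr19:34217737-34232990 (GRCm39, minus strand), was at 1549, 895, 1009 and 2694 CPM on day 7 and 10672, 3874 and 4227 CPM on day 14. The lowest day 14 library exceeded the highest day 7 library, with a log2 fold change of 2.02 ± 0.36 (adjusted p 0.00411), and day 0 was at 16362 ± 1374 (SD, n = 4) CPM. Myh11, the smooth muscle myosin heavy chain, was at 187, 37.7, 75.8 and 417 CPM and then 2089, 521 and 377 CPM. Day 7 replicate 4 exceeded day 14 replicate 3, so the groups overlapped, and the rise was 2.46 ± 0.53 (adjusted p 0.0163), with 3682 ± 343 (SD, n = 4) CPM on day 0. Cnn1, calponin, went from 217, 55.7, 87.7 and 308 CPM to 1518, 450.0 and 411 CPM (log2 2.24 ± 0.45, adjusted p 0.00983), and Myl9, the regulatory myosin light chain, from 522, 199, 275 and 956 CPM to 3522, 1101 and 1195 CPM (log2 1.99 ± 0.40, adjusted p 0.01). For both genes the days lay apart and day 14 replicate 1 was far above the other day 14 libraries. The kinase and phosphatase that set the phosphorylation of Myl9 rose with it: Mylk, myosin light chain kinase, by 1.61 ± 0.31 (adjusted p 0.00877) and Ppp1r12b, a targeting subunit of myosin phosphatase, by 2.24 ± 0.44 (adjusted p 0.00852). Tpm2, a tropomyosin that winds along actin, rose by 1.54 ± 0.31 (adjusted p 0.0104), and Smtn, smoothelin, by 1.56 ± 0.35 (adjusted p 0.0188). Acta2 lost its call without day 14 replicate 1 (adjusted p 0.0758). Myh11 lost its call without day 7 replicate 2 (adjusted p 0.0505), day 7 replicate 3 (adjusted p 0.0593) and day 14 replicate 1 (adjusted p 0.474). Cnn1 lost its call without day 14 replicate 1 (adjusted p 0.228). Myl9 lost its call without day 14 replicate 1 (adjusted p 0.223). Mylk lost its call without day 14 replicate 1 (adjusted p 0.174). Ppp1r12b lost its call without day 14 replicate 1 (adjusted p 0.191). Tpm2 lost its call without day 14 replicate 1 (adjusted p 0.214). Smtn lost its call without day 7 replicate 2 (adjusted p 0.0751), day 7 replicate 3 (adjusted p 0.0671) and day 14 replicate 1 (adjusted p 0.214).

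Sost, sclerostin, a secreted Wnt inhibitor of bone cells that the uninjured carotid also held at 1583 ± 474 (SD, n = 4) CPM, stood on the same list. It was nearly lost on day 7, at 7.12, 1.80, 7.97 and 51.7 CPM, and was at 397, 65.3 and 219 CPM on day 14 (log2 3.66 ± 0.72, adjusted p 0.00913). The days lay apart, and every day 14 library was still far below day 0. Tagln, transgelin, one of the markers of the tissue, was at 1159, 417, 562 and 2949.5 CPM and then 7553, 2026 and 2675 CPM, with day 7 replicate 4 above 2 of the 3 day 14 libraries, and its difference of 1.68 ± 0.47 missed the limit (adjusted p 0.0689). Sost lost its call without day 14 replicate 1 (adjusted p 0.0809), and was not called by limma voom.

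Most of these calls were lost without day 14 replicate 1. With it left out, 1 of 26 contractile genes tested was called higher (Cald1), and the median log2 fold change was 1.01. DESeq2 called 14 of 25 with all libraries and 4 of 26 without day 14 replicate 1. Leaving out day 7 replicate 2 or 3 gave edgeR counts of 8 and 9. Without day 7 replicate 4, by contrast, 19 genes of the list were called and Tagln had an adjusted p of 0.00067. Fitted on the day 7 and day 14 libraries alone, 1 gene of the list was called.

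The start regions of the called genes were searched for letters of known motifs, as a description with no test. RefSeq promoters (GRCm38.p6, 250 bases before to 50 after the listed start) were matched for 111 of the 137 higher genes, 26 of the 34 lower genes and 8168 of all genes tested. The CArG box, on either strand, was found in 5 of the 111 higher genes (4.50%), in none of the 26 lower genes and in 113 of all 8168 (1.38%). The 5 were Myl9, Fbxl22, Ldb3, Myom1 and Stbd1, and 2 of them are on the contractile list. The A- and T-rich core of a CArG box can hold TATAAA, which was also searched. A match does not show that SRF binds there, and no match says only that these letters are not in this window. The promoters of Myl9 (chr2:156775214-156775513, plus strand) and Fbxl22 (chr9:66514544-66514843, minus strand) are shown 5′ to 3′ because both genes are described above, and the capitals mark the CArG box, which begins 161 bases before the start in Myl9 and 222 bases before it in Fbxl22:
Myl9: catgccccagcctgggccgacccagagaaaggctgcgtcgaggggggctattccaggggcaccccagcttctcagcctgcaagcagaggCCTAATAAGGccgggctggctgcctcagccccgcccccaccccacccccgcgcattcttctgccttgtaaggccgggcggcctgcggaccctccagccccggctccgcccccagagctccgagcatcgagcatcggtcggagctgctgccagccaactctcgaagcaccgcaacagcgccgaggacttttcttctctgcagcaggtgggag
Fbxl22: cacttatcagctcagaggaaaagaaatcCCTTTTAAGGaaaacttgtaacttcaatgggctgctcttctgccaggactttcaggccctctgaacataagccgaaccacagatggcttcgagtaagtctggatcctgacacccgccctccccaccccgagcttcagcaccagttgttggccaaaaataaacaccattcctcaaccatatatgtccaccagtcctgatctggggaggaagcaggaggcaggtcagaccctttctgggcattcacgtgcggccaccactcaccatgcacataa

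**Figure D4:**
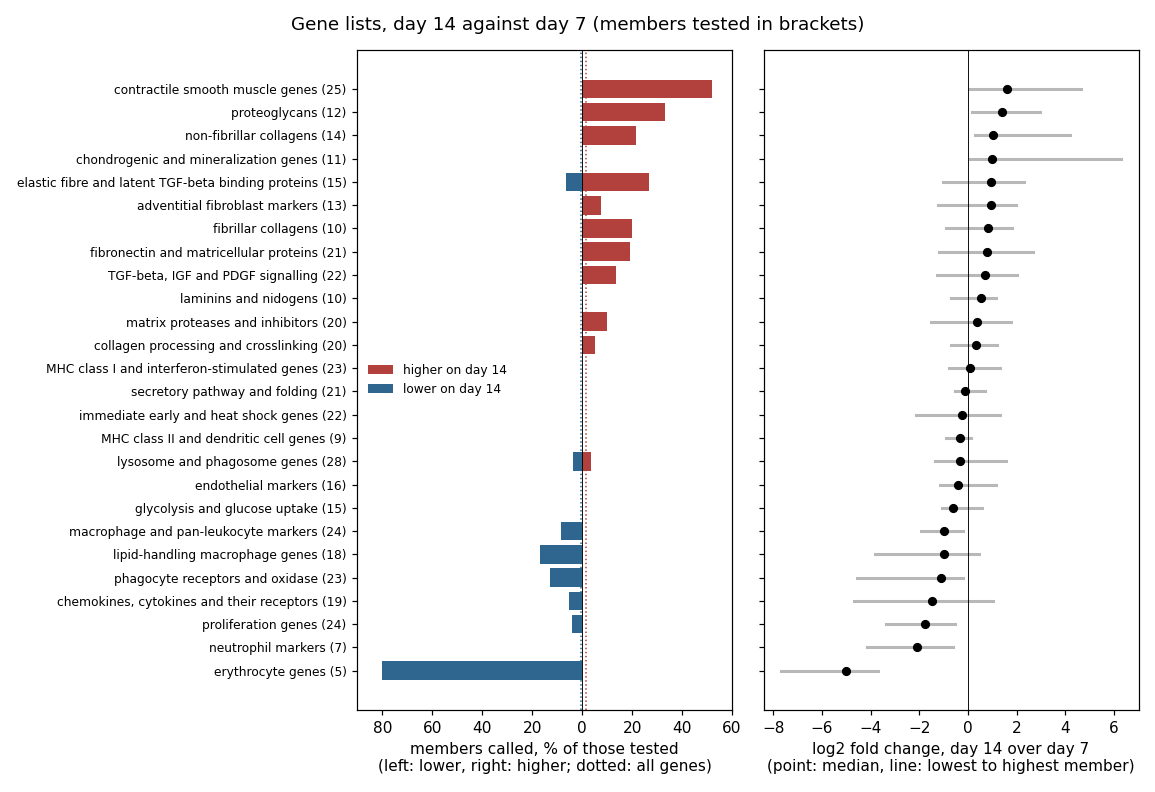
For the 26 gene lists with 5 or more genes tested (number in brackets), the left panel gives the share of members called lower (blue, to the left) or higher (red, to the right), with dotted lines at the 0.33% and 1.33% of all genes. The right panel gives the median log2 fold change (point) and the range over members (line), from 1.62 for contractile smooth muscle genes to -5.02 for erythrocyte genes.

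Matrix genes rose in smaller shares, spread over several classes. All counts of called members below stand against 1.33% of all genes higher and 0.33% lower. Fibrillar collagens, which carry tension, had 2 of 10 tested higher and none lower, with a median log2 fold change of 0.80. Their summed level was 12206, 16106, 16181 and 18049 CPM on day 7 and 23928, 37451 and 24420 CPM on day 14, with no overlap. The uninjured artery held 6392 to 10366 CPM, so both days lay above it. Col3a1 went from 2575, 3517, 2249 and 3621 CPM to 5947, 7237 and 4867 CPM (log2 1.01 ± 0.21, adjusted p 0.0137) and Col1a2 from 3379.6, 4104, 4437 and 5259.8 CPM to 7209, 11838 and 7772 CPM (log2 1.06 ± 0.24, adjusted p 0.0203). Both sets of day 14 libraries lay above day 7, and the days of both lay above the uninjured means of 1932 ± 377 (SD, n = 4) and 2488 ± 596 (SD, n = 4) CPM. Col1a1, the partner chain of Col1a2 in collagen I, was at 5249, 7163, 7707 and 7804 CPM and then 9348, 15424 and 10198 CPM, and although these did not overlap, the difference of 0.74 ± 0.28 was not called (adjusted p 0.248). Leaving out day 14 replicate 2 moved Col3a1 to an adjusted p of 0.0579 and Col1a2 to 0.127, and leaving out day 14 replicate 1 moved Col3a1 to 0.0612. Col1a2 also lost its call without day 7 replicate 1 (adjusted p 0.071) and day 7 replicate 2 (adjusted p 0.0693).

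Of 14 non-fibrillar collagens tested, 3 were higher and none lower, with a median of 1.02 and all 14 estimates above 0. Beside Col14a1 these were Col15a1, of the basement membrane zone, which went from 132, 146, 191 and 223 CPM to 664, 461 and 257 CPM (log2 1.41 ± 0.32, adjusted p 0.0221), and Col6a2, of beaded microfibrils, which rose by 1.38 ± 0.33 (adjusted p 0.0293). The days lay apart for both. Without day 14 replicate 1, Col14a1 alone of this list was called, with Col15a1 at an adjusted p of 0.254 and Col6a2 at 0.0758. Among 20 genes of collagen processing and crosslinking, Adamts2, which cuts the amino-terminal propeptide from procollagen, was the 1 called, at 212, 174, 106 and 286 CPM and then 456, 489 and 393 CPM (log2 1.19 ± 0.27, adjusted p 0.022, and 0.118 without day 14 replicate 1). Lox, the lysyl oxidase that crosslinks collagen and elastin, was at 1255, 679, 688 and 1361 CPM and then 1409, 1196 and 1786 CPM, which overlapped, with a difference of 0.56 ± 0.28 (adjusted p 0.507). Col15a1 also lost its call without day 7 replicate 1 (adjusted p 0.071) and day 7 replicate 2 (adjusted p 0.0751). Col6a2 was called in 1 of the 7 fits without 1 library (adjusted p 0.0671 to 0.105 in those where it was not). Adamts2 was called in 2 of the 7 fits without 1 library (adjusted p 0.0519 to 0.118 in those where it was not).

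Of 15 elastic fibre genes and latent TGF-beta binding proteins tested, 4 were higher and 1 lower, with a median of 0.95. Ltbp1, Ltbp2 and Ltbp4, which hold latent TGF-beta in the matrix or help elastin assemble, were 3 of the 4, with log2 fold changes of 1.25 ± 0.30, 0.98 ± 0.25 and 2.31 ± 0.37 (adjusted p 0.0261, 0.0431 and 0.0016). The fourth was Fbln5, fibulin-5, which links elastin to microfibrils and cells, at 285, 221, 77.7 and 618 CPM on day 7 and 1724, 722 and 1326 CPM on day 14 (log2 2.06 ± 0.39, adjusted p 0.007). All day 14 libraries of Fbln5 lay above day 7, in which replicate 3 was the lowest and replicate 4 the highest. Fbln2, fibulin-2, of the same family, moved the other way, from 946, 1159, 686 and 694 CPM to 449, 401 and 429 CPM (log2 -1.03 ± 0.25, adjusted p 0.0297). Its days lay apart as well, and day 14 was still above the 83.5 ± 11 (SD, n = 4) CPM of the uninjured artery. Eln, tropoelastin, was the most abundant gene of the list, at 8009, 4268, 2823 and 28344 CPM and then 46447, 20298 and 35622 CPM. Day 7 replicate 4 lay within the day 14 range, and the difference of 1.65 ± 0.47 missed the limit (adjusted p 0.0794, and 8.79e-05 without day 7 replicate 4). Without day 14 replicate 1, 1 gene of this list was called higher and none lower, with Fbln5 at 0.0697, Ltbp1 at 0.267, Ltbp2 at 0.0758 and Fbln2 at 0.174. Ltbp1 was called in 2 of the 7 fits without 1 library (adjusted p 0.0648 to 0.267 in those where it was not). Ltbp2 was called in 1 of the 7 fits without 1 library (adjusted p 0.0758 to 0.185 in those where it was not). Fbln2 was called in 2 of the 7 fits without 1 library (adjusted p 0.0939 to 0.174 in those where it was not).

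Proteoglycans had the next largest share after the contractile genes, 4 of 12 tested higher and none lower, with a median log2 fold change of 1.39. The days lay apart in 7 of the 12 in the higher direction, against 6.34% of all genes. Their summed level was 6946, 6226, 3937 and 11249 CPM on day 7 and 15249, 14457 and 14380 CPM on day 14, and the day 14 libraries were close to each other and above all of day 7. All 4 called genes are small leucine-rich proteoglycans, which bind collagen fibrils. Fmod, fibromodulin, went from 12.5, 64.7, 73.8 and 38.7 CPM to 78.4, 642 and 175 CPM (log2 2.65 ± 0.58, adjusted p 0.0163), with replicate 2 far above the other day 14 libraries and an adjusted p of 0.214 without it. Skeletal muscle genes summed to 234.7 CPM in this library, against 0 and 1.30 CPM in day 14 replicates 1 and 3 and 0 to 61.1 CPM on day 7, and their part in its level of Fmod, or of Comp below, was not tested. Ogn, osteoglycin, went from 69.4, 68.3, 93.7 and 140.4 CPM to 533, 217 and 197 CPM (log2 1.76 ± 0.31, adjusted p 0.00369), against 811 ± 103 (SD, n = 4) CPM on day 0. Prelp rose by 1.66 ± 0.36 (adjusted p 0.0163) and Bgn, biglycan, the most abundant, from 4626, 3448, 2125 and 7413 CPM to 10669, 8511 and 8477 CPM (log2 1.07 ± 0.26, adjusted p 0.0336). For these 3 genes the days did not overlap, and leaving out day 14 replicate 1 moved the adjusted p to 0.0758 for Ogn, 0.14 for Prelp and 0.233 for Bgn. Prelp also lost its call without day 7 replicate 2 (adjusted p 0.0728). Bgn was called in 1 of the 7 fits without 1 library (adjusted p 0.0509 to 0.233 in those where it was not).

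Fibronectin and the matricellular proteins, which modulate how cells read the matrix, had 4 of 21 tested higher and none lower, with a median of 0.77. Sparc, osteonectin, was at 3138, 2409.7, 3189.5 and 3565 CPM and then 7085, 7061 and 7575 CPM (log2 1.24 ± 0.27, adjusted p 0.0163). Its day 14 libraries were close to each other, all far above day 7, and the uninjured artery was at 2756 ± 397 (SD, n = 4) CPM. Ccn3, a CCN family protein, went from 205, 21.6, 19.9 and 150.1 CPM to 1112, 394 and 402 CPM (log2 2.67 ± 0.58, adjusted p 0.0163), and Comp, which organises collagen in cartilage and tendon, from 14.2, 41.3, 3.99 and 82.3 CPM to 84.8, 401 and 130.5 CPM (log2 2.49 ± 0.61, adjusted p 0.0315). Ccn3 stayed below its uninjured level of 1511 ± 278 (SD, n = 4) CPM, while Comp was above its 33.6 ± 29.9 (SD, n = 4) CPM. Sparcl1 was higher by 2.48 ± 0.54 (adjusted p 0.0163) although day 7 replicate 1, at 35.6 CPM, exceeded day 14 replicate 3, at 35.2 CPM. Leaving out day 14 replicate 1 gave an adjusted p of 0.0648 for Sparc, 0.192 for Ccn3 and 0.646 for Sparcl1, and leaving out replicate 2 gave 0.271 for Comp. Sparc also lost its call without day 7 replicate 2 (adjusted p 0.0649) and day 14 replicate 3 (adjusted p 0.0519). Ccn3 also lost its call without day 7 replicate 2 (adjusted p 0.0592). Comp was called in 3 of the 7 fits without 1 library (adjusted p 0.0836 to 0.271 in those where it was not). Sparcl1 also lost its call without day 7 replicate 3 (adjusted p 0.0563), and was not called by limma voom.

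Of 20 matrix proteases and inhibitors, Serpine2 and Htra1, a secreted serine protease, were higher and none was lower. Htra1 was at 306, 185, 95.7 and 738 CPM and then 1387, 649 and 1176 CPM, with day 7 replicate 4 above day 14 replicate 2 (log2 1.69 ± 0.40, adjusted p 0.0261, and 0.2 without day 14 replicate 1). In the list of TGF-beta, IGF and PDGF signalling, 3 of 22 were higher and none was lower, and all 3 bind insulin-like growth factors outside the cell. Igfbp2 went from 119, 43.1, 29.9 and 93.6 CPM to 477, 233 and 154 CPM (log2 2.00 ± 0.43, adjusted p 0.0163). Igfbp5 rose by 1.93 ± 0.47 and Igfbp4 by 0.95 ± 0.24 (adjusted p 0.0305 and 0.0375). The days lay apart for all 3, and the adjusted p without day 14 replicate 1 was 0.237, 0.149 and 0.198 for Igfbp2, Igfbp5 and Igfbp4. Igfbp2 was also above its uninjured level of 66.3 ± 29.0 (SD, n = 4) CPM in every day 14 library. Htra1 was called in 2 of the 7 fits without 1 library (adjusted p 0.061 to 0.2 in those where it was not). Igfbp2 also lost its call without day 7 replicate 2 (adjusted p 0.0728) and day 7 replicate 3 (adjusted p 0.0557). Igfbp5 was called in 2 of the 7 fits without 1 library (adjusted p 0.0688 to 0.149 in those where it was not). Igfbp4 was called in 2 of the 7 fits without 1 library (adjusted p 0.0617 to 0.198 in those where it was not).

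No gene was called among 10 laminins and nidogens of the basement membrane or among 11 chondrogenic and mineralization genes, with medians of 0.52 and 0.98. Lamb2, a laminin chain, was at 158, 70.1, 97.7 and 504 CPM and then 619, 342 and 428 CPM, which overlapped through day 7 replicate 4 (adjusted p 0.226, and 0.000334 without that library). Cytl1, a secreted protein of cartilage and vessels, was at 17.8, 30.5, 45.8 and 534 CPM and then 475, 102 and 337 CPM, again with day 7 replicate 4 apart from the rest (adjusted p 0.745, and 0.000269 without it). Among 13 adventitial fibroblast markers, Cd248, endosialin, was higher, at 99.7, 66.5, 97.7 and 111 CPM and then 173, 386 and 189 CPM (log2 1.41 ± 0.32, adjusted p 0.0203, and 0.176 without day 14 replicate 2). The sum of these fibroblast markers, 2009, 1881, 1583 and 2599 CPM on day 7 and 2756, 3169.5 and 2812 CPM on day 14, moved in the same direction as the matrix genes, and its part in their rise was not tested. Cd248 also lost its call without day 7 replicate 2 (adjusted p 0.0787).

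**Figure D5:**
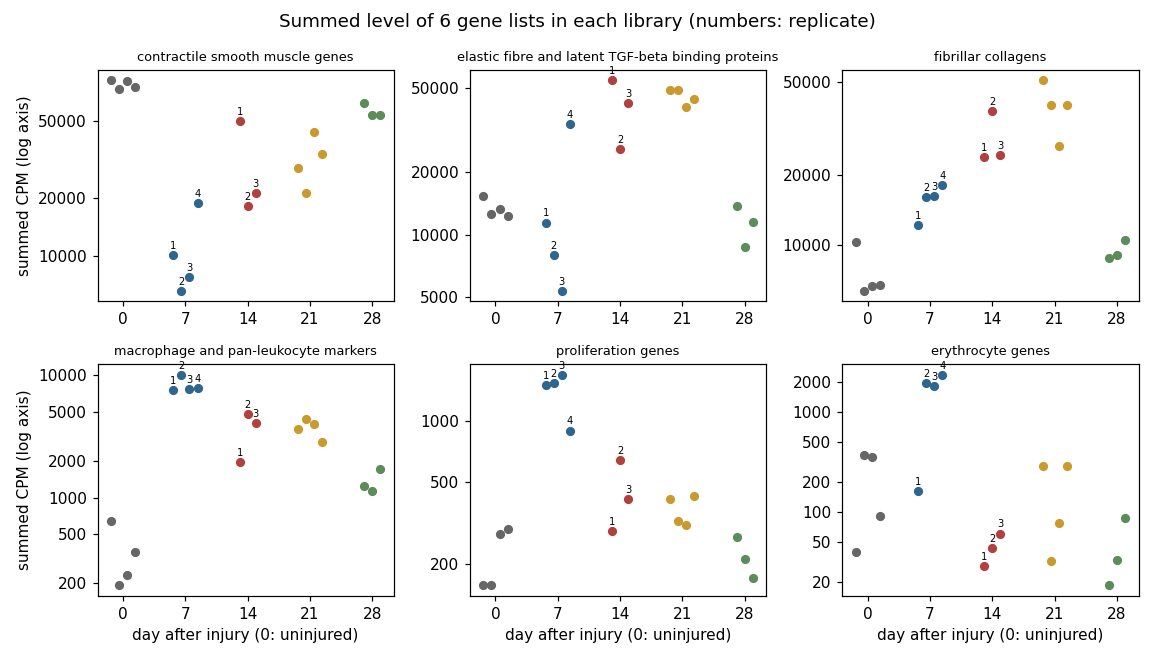
Points give the summed level of 6 gene lists in each of the 18 libraries, in CPM on a log axis, by day after injury, with replicate numbers beside the day 7 (blue) and day 14 (red) libraries. Day 14 replicate 1 is the highest day 14 library for contractile genes (49941 CPM) and the lowest for macrophage markers (1944 CPM) and proliferation genes (290 CPM).

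Erythrocyte genes had the lowest median of the lists with 5 or more genes tested. Of 5 erythrocyte genes tested, 4 were lower, against 0.33% of all genes, and the median log2 fold change was -5.02, or -4.89 with Hba-a1 set at its bound. Their summed level was 164, 1939, 1812 and 2347 CPM on day 7 and 28.8, 44.1 and 61.3 CPM on day 14, so the 4 day 7 libraries differed widely among themselves and replicate 1 was much the lowest. The uninjured arteries held 40.2 to 369 CPM. Hbb-bs was at 121, 1057, 1043 and 1676 CPM and then 19.2, 30.0 and 33.9 CPM (log2 -5.12 ± 0.85, adjusted p 0.00252), Hbb-bt at 14.2, 171, 203 and 232 CPM and then 1.6, 5.29 and 7.83 CPM (log2 -4.89 ± 1.08, adjusted p 0.0173), and Hba-a2 at 28.5, 643, 453 and 399 CPM and then 8, 8.82 and 17.0 CPM (log2 -5.02 ± 1.07, adjusted p 0.0158). For all 3 the days lay apart. Hba-a1 was at 0, 52.1, 89.7 and 21.0 CPM and at 0 in all 3 day 14 libraries, at least 8.72-fold lower (taking 3 counts per library, adjusted p 0.0474), although day 7 replicate 1 was at 0 as well. The 2 alpha and the 2 beta globin genes are near-identical copies, so how the counts divide within each pair is uncertain. With day 14 replicate 1 left out, 1 of the 5 was called, and the adjusted p was 0.149 for Hbb-bt, 0.118 for Hba-a2 and 0.237 for Hba-a1. Hbb-bt also lost its call without day 14 replicate 3 (adjusted p 0.0606), and was not called by limma voom. Hba-a2 also lost its call without day 14 replicate 3 (adjusted p 0.0529), and was not called by limma voom. Hba-a1 was called in 2 of the 7 fits without 1 library (adjusted p 0.105 to 0.237 in those where it was not), and was not called by DESeq2 or limma voom.

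Genes that handle haem and iron were listed after the calls had been seen, and 4 of 17 tested were lower, with a median of -0.72. As the calls were known when the list was written, this share, against 0.33% of all genes, is a description only. Of the 4 lower genes, Marco and Slc40a1 had few counts on day 14, and Marco passed the filter only through the day 7 libraries. Marco is also not itself an enzyme, carrier or store of haem or iron. Hmox1, haem oxygenase 1, which breaks haem down to biliverdin, iron and carbon monoxide, lies at chr8:75820241-75827217 (GRCm39, plus strand). It was at 539.5, 904, 572 and 1661 CPM on day 7 and 17.6, 86.5 and 17.0 CPM on day 14. Every day 7 library was far above every day 14 library, the log2 fold change was -4.54 ± 0.88 and the adjusted p was 0.0085, with 6.51 ± 7.68 (SD, n = 4) CPM on day 0. Slc40a1, ferroportin, the exporter of iron from macrophages, was at 30.3, 62.9, 81.7 and 150.1 CPM and then 4.80, 3.53 and 6.52 CPM (log2 -3.96 ± 0.89, adjusted p 0.0227), and Ftl1, the ferritin light chain that stores iron, at 2201, 2144, 1714 and 4115 CPM and then 552, 932 and 899 CPM (log2 -1.68 ± 0.29, adjusted p 0.00329). Neither overlapped, though a processed pseudogene of Ftl1, Ftl1-ps1, is listed too and may take part of its reads. Ftl1-ps1 was itself among the 34 genes called lower (log2 -1.87), so these 2 calls may rest on shared reads. Its call was lost without day 14 replicate 1 or day 14 replicate 3. Marco, a scavenger receptor of macrophages, was at 60.5, 7.19, 29.9 and 102 CPM and then 0, 0 and 1.30 CPM (adjusted p 0.0293). Fth1, the ferritin heavy chain, was at 5372, 3752, 2117 and 5211 CPM and then 2429.8, 2732 and 2329 CPM, which overlapped through day 7 replicate 3, and was not called (log2 -0.72 ± 0.27, adjusted p 0.248). Without day 14 replicate 1 none of these 4 genes was called (adjusted p 0.0758 for Hmox1, 0.0522 for Ftl1, 0.168 for Slc40a1 and 0.214 for Marco). Hmox1 also lost its call without day 14 replicate 3 (adjusted p 0.0519). Slc40a1 was called in 1 of the 7 fits without 1 library (adjusted p 0.0615 to 0.168 in those where it was not), and was not called by DESeq2. Marco was called in 1 of the 7 fits without 1 library (adjusted p 0.0875 to 0.214 in those where it was not, and not tested without day 7 replicate 1, day 7 replicate 3 and day 7 replicate 4), and was not called by DESeq2.

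Macrophage genes lay lower on day 14 in nearly every case, with few calls. All 24 macrophage and pan-leukocyte markers tested had an estimate below 0, and the median was -0.98. The days did not overlap in 14 of these 24 markers, against 7.59% of all genes in the lower direction. Their summed level was 7543, 10135, 7737 and 7833 CPM on day 7 and 1944, 4816 and 4053 CPM on day 14, lowest in day 14 replicate 1, and the uninjured artery held 191 to 646 CPM. Every day 14 library thus lay between the uninjured and the day 7 libraries. Of the 24, 2 were called lower, Lyz2 and Mrc1. Lyz2, lysozyme of phagocytes, at chr10:117111557-117118346 (GRCm39, minus strand), went from 2185, 2988, 2538 and 3034 CPM to 411, 792 and 929 CPM (log2 -1.92 ± 0.44, adjusted p 0.022), and Mrc1, the mannose receptor, from 135, 179.7, 89.7 and 88.8 CPM to 33.6, 30.0 and 37.8 CPM (log2 -1.86 ± 0.44, adjusted p 0.0261). For both, every day 14 library was below every day 7 library, and leaving out day 14 replicate 1 moved the adjusted p to 0.213 for Lyz2 and 0.18 for Mrc1. Cd68, a lysosomal marker of macrophages, was at 189, 279, 169 and 236 CPM and then 49.6, 91.8 and 58.7 CPM, and Csf1r, the receptor they need for survival, at 166, 255, 152 and 171 CPM and then 49.6, 150 and 133 CPM. These did not overlap either, but the differences of -1.71 ± 0.56 and -0.74 ± 0.40 were not called (adjusted p 0.146 and 0.553). Lyz2 also lost its call without day 7 replicate 2 (adjusted p 0.0693) and day 14 replicate 3 (adjusted p 0.0505). Mrc1 was called in 2 of the 7 fits without 1 library (adjusted p 0.0806 to 0.18 in those where it was not).

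Of 18 lipid-handling genes of macrophages, 3 were lower and none higher, with a median of -0.99. Cd36, a scavenger receptor for oxidised lipoproteins and fatty acids, was at 73.0, 89.8, 95.7 and 199 CPM and then 1.6, 15.9 and 6.52 CPM (log2 -3.84 ± 0.87, adjusted p 0.0215). Fabp5, a fatty acid carrier, fell by 2.52 ± 0.59 on the log2 scale and Lgals3, galectin-3, by 1.55 ± 0.39 (adjusted p 0.0256 and 0.0368). The days lay apart for all 3 genes, and none of them was called without day 14 replicate 1 (adjusted p 0.178 for Cd36, 0.175 for Fabp5 and 0.356 for Lgals3). Among 23 phagocyte receptors and oxidase genes, all with estimates below 0 and a median of -1.10, 3 were lower. Hmox1 was on this list as well, and the other two were Clec4n, dectin-2, a receptor for fungal mannans, at 179.8, 212, 116 and 576 CPM and then 6.40, 42.4 and 31.3 CPM (log2 -3.34 ± 0.66, adjusted p 0.0105), and Fcgr3, an Fc receptor, at 240.4, 257, 213 and 239 CPM and then 44.8, 111 and 93.9 CPM (log2 -1.51 ± 0.33, adjusted p 0.0163). Day 14 lay wholly below day 7 for both, and the adjusted p without day 14 replicate 1 was 0.0941 and 0.197. Cd36 was called in 3 of the 7 fits without 1 library (adjusted p 0.0515 to 0.178 in those where it was not). Fabp5 was called in 2 of the 7 fits without 1 library (adjusted p 0.0556 to 0.175 in those where it was not). Lgals3 was called in 2 of the 7 fits without 1 library (adjusted p 0.0562 to 0.356 in those where it was not). Fcgr3 also lost its call without day 7 replicate 2 (adjusted p 0.0617) and day 14 replicate 3 (adjusted p 0.0537).

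Lysosome and phagosome genes had no common direction among their calls, with 1 of 28 higher (Cst3) and 1 lower, and a median of -0.35. Most estimates, 21 of 28, were below 0, and 7 were above it. The days lay apart in 7 genes in the lower direction and 1 in the higher, against 7.59% and 6.34% of all genes. The lower gene was Ctsd, cathepsin D, at 2397, 3317, 2265 and 5675 CPM and then 1236, 1114 and 1628 CPM (log2 -1.36 ± 0.31, adjusted p 0.0226, and 0.174 without day 14 replicate 1). Ctsd thus lay lower and Cst3 higher on day 14, each without overlap. Stab1, a scavenger receptor of macrophages and sinus endothelium, fell by 1.5 ± 0.30 on the log2 scale (adjusted p 0.00983), Creg1, a secreted lysosomal glycoprotein, by 1.70 ± 0.35 (adjusted p 0.0127) and Procr, the endothelial protein C receptor, by 2.18 ± 0.46 (adjusted p 0.0138). Procr was at 229.7, 113, 857 and 239 CPM on day 7, with replicate 3 far above the others, and 89.6, 82.9 and 65.2 CPM on day 14, and without that library its log2 fold change was -1.29. The adjusted p left without day 14 replicate 1 was 0.103 for Stab1, 0.133 for Creg1 and 0.0758 for Procr. Ctsd was called in 3 of the 7 fits without 1 library (adjusted p 0.0515 to 0.174 in those where it was not). Creg1 also lost its call without day 14 replicate 3 (adjusted p 0.0606). Procr also lost its call without day 7 replicate 3 (adjusted p 0.0732) and day 14 replicate 3 (adjusted p 0.0727).

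A further list written after the calls covered glutathione and thioredoxin enzymes, which detoxify peroxides. Again as a description only, 2 of 23 were lower with a median of -0.58. Prdx1, a peroxiredoxin, went from 1134, 1297, 831 and 1739 CPM to 497, 485 and 529.7 CPM (log2 -1.31 ± 0.29, adjusted p 0.0203), and Gclm, the modifier subunit of the enzyme that starts glutathione synthesis, from 78.3, 93.4, 63.8 and 121 CPM to 16, 30.0 and 23.5 CPM (log2 -1.94 ± 0.51, adjusted p 0.0462). Both pairs of groups lay apart, and neither gene was called without day 14 replicate 1 (adjusted p 0.14 and 0.356), nor Gclm with any of the other 6 libraries left out. Txnrd1, thioredoxin reductase, was at 183, 167, 209 and 129 CPM and then 46.4, 108 and 43.1 CPM, also apart, and missed the limit (log2 -1.40 ± 0.42, adjusted p 0.102). Prdx1 was called in 3 of the 7 fits without 1 library (adjusted p 0.0546 to 0.14 in those where it was not).

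In the promoters of the lower genes, TGANTCA, the binding letters of AP-1 and its relatives (N is any base), was found on either strand in 5 of 26 (19.2%), in 8 of 111 higher genes (7.21%) and in 4.96% of all 8168. The 5 were Prdx1, Hbb-bs, Hmga1b, Procr and Selp. CCAAT, the letters bound by NF-Y, was in 17 of 26 lower genes (65.4%), 34.2% of higher genes and 38.0% of all. Among the contractile genes called higher CCAAT was in 7 of 11 (63.6%), so a large share was not particular to the lower genes. The same 11 contractile genes held TGANTCA in 2 (18.2%), so its share was not particular to the lower genes either. GAGGAA, bound by PU.1 and other ETS factors of leukocytes, was in 26.9% of lower genes, 29.7% of higher genes and 26.8% of all. It was in 5 of the 11 contractile genes (45.5%). TATAAA was in 11.5% of lower genes, 6.31% of higher genes and 6.99% of all. The lower genes include globin copies with alike promoters, which count separately in these shares. The promoter of Prdx1 (chr4:116685349-116685648, GRCm38.p6, plus strand) is shown 5′ to 3′ as the lower gene with TGANTCA at 2 places, beginning 237 and 131 bases before the start and marked in capitals:
Prdx1: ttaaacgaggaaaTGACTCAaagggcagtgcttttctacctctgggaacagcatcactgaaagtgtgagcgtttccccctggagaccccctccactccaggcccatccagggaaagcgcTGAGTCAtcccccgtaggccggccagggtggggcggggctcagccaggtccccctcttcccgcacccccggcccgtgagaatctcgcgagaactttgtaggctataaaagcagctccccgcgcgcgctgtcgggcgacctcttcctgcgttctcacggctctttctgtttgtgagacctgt

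Genes of dividing cells were lower on day 14 in direction throughout but seldom called. All 24 proliferation genes tested had estimates below 0, and the median was -1.78. The days lay apart in 14 of them, against 7.59% of all genes in the lower direction, and 1 was called. Their summed level was 1496, 1522, 1676 and 894 CPM on day 7 and 289.5, 639 and 414 CPM on day 14, with no overlap, against 157 to 295 CPM in uninjured arteries. Ube2c, the ubiquitin-conjugating enzyme of the anaphase-promoting complex, was at 89.0, 97.0, 119.6 and 61.3 CPM and then 4.80, 22.9 and 19.6 CPM (log2 -2.52 ± 0.62, adjusted p 0.0329). Its call was lost with any of 6 of the 7 libraries left out, day 7 replicate 4 being the exception, and the adjusted p without day 14 replicate 1 was 0.308. Mki67, the common marker of cycling cells, was at 89.0, 102, 102 and 61.3 CPM and then 11.2, 38.8 and 33.9 CPM, and Stmn1, which destabilises microtubules, at 126, 113, 97.7 and 108 CPM and then 16, 44.1 and 39.1 CPM. Neither overlapped, and neither was called (log2 -1.65 ± 0.70 and -1.75 ± 0.59, adjusted p 0.353 and 0.171). Ccnd2, cyclin D2, which is not on that list, was higher on day 14, at 249, 203, 187 and 195 CPM and then 779, 431 and 497 CPM (log2 1.45 ± 0.25, adjusted p 0.00369, and 0.0576 without day 14 replicate 1).

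Chemokines, cytokines and their receptors had 1 of 19 tested lower, 18 of 19 estimates below 0 and a median of -1.5. Ccl6, a chemokine of macrophages and neutrophils, was at 379, 273, 191 and 88.8 CPM and then 27.2, 72.4 and 18.3 CPM (log2 -2.59 ± 0.61, adjusted p 0.0261, and 0.215 without day 14 replicate 1). Its lowest day 7 library was only slightly above its highest day 14 library. Ccl2, the chemokine that draws monocytes, was at 545, 415, 297 and 9.69 CPM and then 3.20, 98.8 and 17.0 CPM (log2 -3.02 ± 0.87, adjusted p 0.0905). Day 7 replicate 4 was low for this gene and lay within the day 14 range, and without it the adjusted p was 0.00528. Cxcl12, which retains leukocytes and progenitors in tissue, was at 1652, 1517, 399 and 747 CPM and then 378, 528 and 393 CPM, which overlapped (log2 -1.32 ± 0.36, adjusted p 0.0587). Ccl6 was called in 3 of the 7 fits without 1 library (adjusted p 0.08 to 0.215 in those where it was not).

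Of 18 neutrophil markers listed, 7 passed the filter on low counts. None of these 7 was called, although all 7 estimates were below 0, with a median of -2.08. A gene can pass this filter by its day 7 level, so the common direction is a description only. S100a8, a calcium-binding protein of neutrophils, was at 331, 104, 199 and 95.2 CPM and then 4.80, 86.5 and 7.83 CPM, and Lcn2, lipocalin 2, at 623, 173, 0 and 50.05 CPM and then 0, 30.0 and 6.52 CPM. Day 14 replicate 2 was well above the other day 14 libraries for both genes, and the adjusted p was 0.484 for S100a8 and 0.104 for Lcn2. The defining markers Ly6g, of neutrophils, and Cd3e, Trbc2 and Cd79a, of T and B cells, did not pass the filter on low counts.

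Several lists gave no call in either direction. MHC class II and dendritic cell genes, which present antigen, had a median of -0.33 over 9 tested, and H2-Aa was at 566, 812, 347 and 336 CPM and then 242, 602 and 381 CPM, which overlapped. For MHC class I and interferon-stimulated genes the median was 0.08 over 23 tested. The medians of 16 endothelial markers, 22 immediate early and heat shock genes and 21 genes of the secretory pathway were -0.43, -0.25 and -0.13. Endothelial markers summed to 1264, 1371, 3644 and 3345 CPM on day 7 and 1777, 1680 and 1802 CPM on day 14, with the day 14 libraries inside the wide day 7 range. Glycolytic genes had 14 of 15 estimates below 0 and a median of -0.60, and Pkm, pyruvate kinase, at 778, 588, 562 and 510.1 CPM and then 304, 379 and 301 CPM, lay apart between the days without passing the limit (log2 -0.89 ± 0.24, adjusted p 0.0562, and 0.0265 without day 7 replicate 4). A missed limit here does not show that levels were alike, since in simulated data of this depth and spread edgeR recovered 35.8% of 4-fold and 2.13% of 2-fold changes.

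The later libraries place these levels in the course of healing, as values with no test. Acta2 stood at 7579 ± 3086 (SD, n = 4) CPM on day 21 and 9611 ± 2674 (SD, n = 3) CPM on day 28, and Myh11 at 992 ± 388 (SD, n = 4) and 2346 ± 51.0 (SD, n = 3) CPM, each below its day 0 level. Col1a2 stood at 12716 ± 3222 (SD, n = 4) CPM on day 21 and then at 3505 ± 427 (SD, n = 3) CPM on day 28, and Sparc at 10430 ± 4359 (SD, n = 4) and 3068 ± 876 (SD, n = 3) CPM, each higher on day 21 than on day 28. Lyz2 stood at 1198 ± 587 (SD, n = 4) CPM on day 21 and 395 ± 98.6 (SD, n = 3) CPM on day 28. Hmox1 stood at 32.1 ± 36.1 (SD, n = 4) and 14.9 ± 24.5 (SD, n = 3) CPM and Pf4 at 29.3 ± 15.4 (SD, n = 4) and 3.90 ± 5.39 (SD, n = 3) CPM, both far below their day 7 libraries.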

How the data were processed

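Laser-captured carotid sections were profiled by MACE-seq, which sequences the 3′ ends of transcripts. The deposited raw table holds estimated counts per gene, whole numbers used as deposited, and the submitters' processing notes name Salmon 1.9.0, DESeq2 1.36.0 and mm39. The deposited normalised table holds a signal, counts that the authors scaled with a size factor for each library, and was used for an alternative only.

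Counts were analysed in R 4.3.3 with edgeR 4.0.16 (TMM, filterByExpr by day with a minimum count of 10, quasi-likelihood test, all 18 libraries, contrast day 14 minus day 7, Benjamini-Hochberg limit 0.05). SE values are the log2 fold change divided by the root of F. DESeq2 1.42.0, limma 3.58.1, other scalings, filters and thresholds, and fits without each library, were alternatives. No 2 libraries of a group agreed within sampling noise. The code was tested on simulated data with 9793 genes, each drawn independently, where 36 of 38 edgeR calls were right (5.26% false). Shifts of many genes together within a library were not simulated, so this share need not hold for the real calls. Named were, per direction, the top 15 genes by p whose days lay apart, and for each list up to 8 called members or, with fewer than 2, the 2 most abundant. The members and lists were chosen with earlier results of these data known. Positions are those of GENCODE vM39 on GRCm39, and promoters those of RefSeq on GRCm38.p6. Of 106 genes printed or considered, 10 share exon bases with a gene on the same strand and 49 with one on the opposite strand, so their counts may be shared.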

Additional observations from a re-analysis of the deposited data

Results flagged for a closer look

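Among 223 groups of 4 libraries tested for a library far from the other 3, 16 were set apart by a gap above Dixon's 95% critical value, and chance flags about 1 in 20 groups. On day 7, replicate 4 stood apart with 345 CPM of Ltbp4 (81.7 to 95.2 in the others), 51.7 CPM of Sost (1.80 to 7.97), 534 CPM of Cytl1 (17.8 to 45.8), 2220 summed CPM of laminins and nidogens (960 to 1160) and 807 summed CPM of chondrogenic and mineralization genes (235 to 311). Replicate 1 of day 7 was low for Col6a2, at 101 CPM (147 to 150 in the others), and for Stab1, at 246 CPM (473 to 486). Procr was high in day 7 replicate 3, at 857 CPM (113 to 239), and the macrophage and pan-leukocyte markers summed highest in day 7 replicate 2, at 10100 CPM (7540 to 7830).

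In the reference groups, day 0 replicate 1 stood apart with 3950 CPM of Col1a1 (2030 to 2140 in the others), 426 CPM of Fbln5 (628 to 657), 2160 CPM of Sparc (2920 to 3020), 115 CPM of Hmga1b (42.0 to 49.2) and 20.8 CPM of Cd68 (0 to 2.62). On day 21, replicate 3 held 57.6 CPM of Mrc1 (18.6 to 24.2) and replicate 2 held 866 CPM of Ltbp2 (556 to 579).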

How the results depend on the processing

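Against 171 genes called (137 higher, 34 lower; 80.1% higher), DESeq2 called 317 (220 higher, 97 lower; 69.4% higher), limma voom with sample weights 653 (356 and 297; 54.5% higher) and edgeR without a filter on low counts 392 (302 and 90). At a limit of 0.01 the count was 42 (35 and 7) and at 0.1 it was 288 (220 and 68). The day 7 and day 14 libraries alone gave 83 (40 and 43; 48.2% higher). Leaving out 1 library at a time gave 26 to 318 calls, 23 to 272 higher and 3 to 46 lower, and DESeq2 without 1 day 14 library gave 110 to 349 calls, 80 to 225 higher and 30 to 124 lower (without replicate 3, 263 calls, 82 of them lower). Limma-trend, RLE scaling, library totals, a minimum count of 20 and thinning gave 174 to 193 calls. The cause of these changes was not tested. With the replicate number as a replicate block the count was 192 (163 higher, 29 lower). With day means removed, day 7 and day 14 samples of the same replicate number correlated at -0.000186, 0.205 and -0.0057. Differently numbered pairs ranged from -0.287 to 0.226. The labels do not say whether these numbers pair the samples, and so few correlations cannot decide it. No called gene named in the report changed direction in any setting run. Of 83 called genes printed or considered, 23 were still called without day 14 replicate 1 and 47 without day 7 replicate 2. Of the 171 calls, 159 were also made by both DESeq2 and limma voom.

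In data simulated at this depth, spread and number of libraries, each gene was drawn independently. There edgeR recovered 35.8% of 4-fold changes with 5.26% of its calls false, DESeq2 51.6% with 13.8% false, and limma voom 34.7% with 10% false. The DESeq2 fits without a library, the fit without day 0 (127 calls) and the lists written after the calls were added after seeing the data.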

Other observations

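Further genes outside the groups described above also passed the test. Crispld2, a secreted protein with a cysteine-rich domain, was at 49.9, 37.7, 17.9 and 83.9 CPM on day 7 and 386, 206 and 145 CPM on day 14, with no overlap (log2 2.35 ± 0.42, edgeR adjusted p 0.00379). Myom1, myomesin 1, which links myosin filaments in striated muscle and is among the 5 higher genes with a CArG box, was at 32.1, 23.4, 14.0 and 53.3 CPM and then 258, 91.8 and 106 CPM (log2 2.28 ± 0.39, edgeR adjusted p 0.00344). Its days lay apart, with day 14 replicate 1 much the highest. Esd, an esterase that completes the detoxification of formaldehyde, was lower, at 309.8, 316, 297 and 402 CPM and then 117, 148 and 117 CPM (log2 -1.38 ± 0.26, edgeR adjusted p 0.00757). Leaving out day 14 replicate 1 moved the adjusted p to 0.0612 for Crispld2, 0.0648 for Myom1 and 0.0758 for Esd.

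S100b, a calcium-binding protein of Schwann cells and cartilage, was at 1.78, 10.8, 0 and 9.69 CPM on day 7 and 12.8, 101 and 73.1 CPM on day 14. The days did not overlap, replicate 1 was the lowest day 14 library, and the difference was not called (log2 3.40 ± 1.01, edgeR adjusted p 0.095). Of 4 Schwann cell genes tested, 1 estimate, that of S100b, was above 0 and 2 were below it, with a median of -0.14.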
